A study of Mus musculus with 9 samples.

Results

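The triggering receptors expressed on myeloid cells (TREM) and their signalling partner DAP12 were examined as a set of 8 genes: the receptors *Treml4*, *Trem1*, *Trem2*, *Trem3*, *Treml1* and *Treml2*, the adaptor gene *Tyrobp*, which encodes DAP12, and *Syk*, the kinase that docks on the phosphorylated adaptor. The set was chosen by the rise of *Treml4* in cells treated with emulsion particles, so the change of *Treml4* against control is given as a description without a test. All 8 genes were found among the 54432 genes of the table, and all 8 were among the 12637 genes with more than 10 estimated counts in at least 3 of the 9 libraries, which were the genes tested. *Treml1* only just passed, with 7 to 16 counts per library.

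TREM proteins are cell surface receptors with an extracellular immunoglobulin domain. Most have a short cytoplasmic tail without signalling motifs and pair through a charged transmembrane residue with DAP12, whose immunoreceptor tyrosine-based activation motif recruits SYK. TREM1 amplifies inflammatory responses of neutrophils and monocytes, whereas TREM2 binds lipids and lipoproteins and is a marker of lipid-laden macrophages in adipose tissue and atherosclerotic plaques. TREML4 binds dead cells and has been linked to TLR7 signalling, TREML1 is a protein of platelet granules that carries an inhibitory motif, and the mouse TREM genes lie together in a cluster on chromosome 17.

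The RNA came from RAW264.7 cells, mouse macrophages transformed with a leukaemia virus, so the data describe a single cell line. There were 3 control libraries (CTRL, untreated cells), 3 libraries of cells given VLDL-sized emulsion particles (VLDLsep, 1 mM, 6 h) and 3 of cells given chylomicron-sized emulsion particles (CHYLsep, 1 mM, 6 h). The particles were made from sunflower oil with the milk protein caseinate as emulsifier, and the control cells received neither. According to the methods, samples of a condition within an experiment were pooled before sequencing, and the experiment was done in triplicate. Differences are therefore weighed against the spread between such pools.

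The libraries held 22393893 to 22856792 estimated counts. Replicate 3 of every group stood apart: the chi-square per degree of freedom was 12 to 15.1 between replicate 3 and the other replicates of its group and 3.39 to 5.03 between replicates 1 and 2, and no library was a copy of another of its group. The macrophage markers were abundant, with a summed level of 7090 to 7280 counts-per-million (cpm) in CTRL, 5920 to 6230 in VLDLsep and 6130 to 6440 in CHYLsep, and all 8 passed the filter. The summed levels of the 7 neutrophil markers (1.55 to 2.25 cpm, with *S100a9* and *Elane* at 0 in all libraries), 6 dendritic cell markers (1.99 to 3.23 cpm), 4 B cell markers (at most 0.175 cpm), 5 T and NK cell markers (at most 0.306 cpm) and 4 fibroblast markers (1.53 to 2.51 cpm) were low. The neutrophil marker *Ly6g* had 0 counts in the 3 CTRL libraries and 4 to 9 in the 6 treated libraries. The part of these shifts in the results below was not tested. In bulk RNA a change in the number of cells that express a gene and a change in the RNA per cell cannot be told apart.

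The 6 receptor genes lie on chromosome 17 of GRCm38, in the order *Trem1* (48232768 to 48246924), *Trem3* (48247777 to 48258841), *Treml4* (48264295 to 48275360), *Treml2* (48299498 to 48312533), *Trem2* (48346401 to 48354147) and *Treml1* (48359916 to 48367176), all on the plus strand. A pair of further receptor-like genes, A530064D06Rik (48149126 to 48167275, minus strand, with *Trem4* as a synonym in RefSeq) and B430306N03Rik (48316141 to 48327024, plus strand, with *Treml6* as a synonym), belongs to the same cluster and was not part of the set. *Tyrobp* lies on chromosome 7 (30413760 to 30417585) and *Syk* on chromosome 13 (52583173 to 52648792). The promoters of *Treml4*, of the 2 neighbours and of *Trem1* are shown because these are the genes of the cluster whose levels differed most between control and treated cells. They are RefSeq sequences of GRCm38.p6 from 250 bases before to 50 bases after the transcription start, 5′ to 3′ on the strand of the gene, and RefSeq promoters were at hand for 5 of the 8 genes of the set. Their positions are chr17:48264045-48264344 (*Treml4*, plus strand), chr17:48167208-48167507 (A530064D06Rik, minus strand), chr17:48315912-48316211 (B430306N03Rik, plus strand) and chr17:48232489-48232788 (*Trem1*, plus strand). Capitals mark the copies of a direct repeat in *Treml4* and the letters of a PU.1 motif in the neighbours, and nothing is marked in *Trem1*.
Treml4: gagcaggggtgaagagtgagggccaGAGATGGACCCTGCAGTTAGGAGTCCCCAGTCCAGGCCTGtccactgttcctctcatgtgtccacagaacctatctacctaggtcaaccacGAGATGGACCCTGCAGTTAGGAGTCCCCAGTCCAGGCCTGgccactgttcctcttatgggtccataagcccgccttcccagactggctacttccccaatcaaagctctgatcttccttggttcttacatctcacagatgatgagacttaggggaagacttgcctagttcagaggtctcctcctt
A530064D06Rik: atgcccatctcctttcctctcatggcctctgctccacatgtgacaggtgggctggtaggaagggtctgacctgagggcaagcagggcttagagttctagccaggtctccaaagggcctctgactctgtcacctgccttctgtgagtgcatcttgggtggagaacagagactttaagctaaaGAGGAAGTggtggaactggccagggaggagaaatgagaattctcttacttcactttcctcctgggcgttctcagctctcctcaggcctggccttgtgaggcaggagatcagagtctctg
B430306N03Rik: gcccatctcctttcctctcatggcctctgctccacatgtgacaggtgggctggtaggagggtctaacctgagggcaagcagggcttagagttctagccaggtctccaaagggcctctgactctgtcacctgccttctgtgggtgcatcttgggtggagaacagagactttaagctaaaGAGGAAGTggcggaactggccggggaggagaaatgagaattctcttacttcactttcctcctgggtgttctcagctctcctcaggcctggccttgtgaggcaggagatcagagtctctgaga
Trem1: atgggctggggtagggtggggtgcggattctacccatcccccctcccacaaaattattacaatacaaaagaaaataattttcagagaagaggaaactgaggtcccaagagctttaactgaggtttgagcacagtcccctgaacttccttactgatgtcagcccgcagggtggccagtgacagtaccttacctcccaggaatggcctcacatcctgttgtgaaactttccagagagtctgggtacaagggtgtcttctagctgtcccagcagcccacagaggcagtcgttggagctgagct

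The *Treml4* promoter held an exact direct repeat of 40 bases, with copies that begin 225 and 134 bases before the start. A repeat at least as long was found in 112 of the 32851 mouse promoters searched (0.34%). The longest exact repeat in the *Trem1* promoter was 9 bases, a length reached by 42.81% of promoters. The promoters of A530064D06Rik and B430306N03Rik were nearly the same sequence, with 292 identical bases among 297 aligned (98.3%), whereas in alignments with free ends no other pair of cluster promoters matched up over more than 105 bases.

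Each promoter was searched on both strands for the letters of 4 motifs. GAGGAAGT, bound by the myeloid factor PU.1, was present in 3.2% of all promoters, and in the cluster it was found 69 bases before the start of A530064D06Rik and 72 bases before that of B430306N03Rik. The AP-1 letters TGANTCA (7.8% of all promoters) were found 9 bases before the start of *Trem2*, and the E-box CACGTG (7.2%) 69 bases before that of *Treml1*. The core of the antioxidant response element, TGACNNNGC, was present in 12.4% of all promoters and in none of the cluster promoters searched. None of the 4 motifs was found in the windows of *Treml4*, *Trem1* or *Syk*. These matches describe letters in a short window and were not tested for binding.

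To compare genes with each other, levels were divided by the length of the exons. In CTRL cells *Tyrobp* was the most abundant gene of the set, with 600.0 ± 34.4 cpm per kilobase (SD, n = 3), and ranked 64 among the 12636 tested genes with a known length. *Trem2* followed with 76.1 ± 2.49 cpm per kilobase (rank 664), then *Syk* with 12.8 ± 0.568 and *Trem1* with 10.4 ± 0.458. *Trem3* (3.46 ± 0.269), *Treml4* (0.824 ± 0.1), *Treml2* (0.621 ± 0.0979) and *Treml1* (0.293 ± 0.0651) were low. The ranges over the 3 libraries did not overlap between neighbours in this order. Per length of all annotated exons, the adaptor level was 6.28 to 6.82 times the summed level of the 6 receptors in the CTRL libraries. In the treated libraries it was 5.87 to 6.16 times that sum. The *Trem2* length used was 4946 bases, with 4784 for its longest transcript. If the cells use a shorter *Trem2* transcript, its level, rank and share would be higher and this ratio lower. Which transcripts the cells used was not tested.

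With either particle the order changed at a single gene. *Treml4* moved past *Trem1* and *Trem3* to 12.5 ± 0.738 cpm per kilobase in VLDLsep and 11.8 ± 0.761 in CHYLsep, and came next to *Syk* (15.5 ± 0.582 and 15.1 ± 0.728), still without overlap. In VLDLsep the ranges of *Trem1* (4.4 ± 0.867 cpm per kilobase) and *Trem3* (2.88 ± 0.593) overlapped. *Trem2* made up 82.1% to 83.9% of the summed receptor level per length in the CTRL libraries, *Trem1* 10.5% to 12.0% and *Treml4* 0.782% to 1.01%. In the 6 treated libraries *Trem2* made up 75.0% to 79.7%, *Treml4* 10.8% to 13.5% and *Trem1* 3.7% to 7.1%. The plot of levels per exon length shows this exchange between *Treml4* and *Trem1*.

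**Figure D1:**
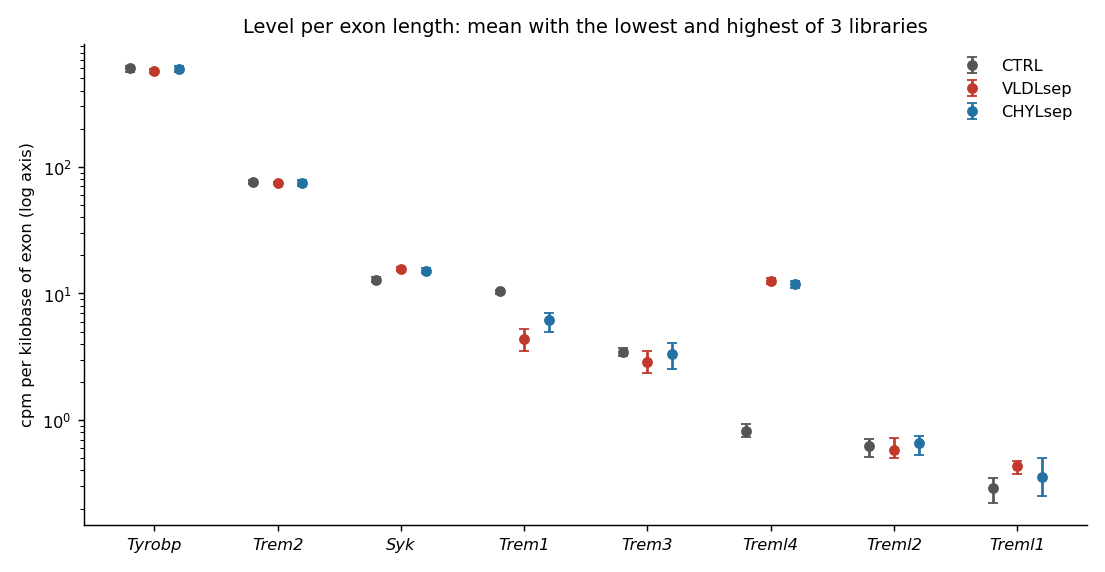
Level of each gene in cpm per kilobase of exon (log axis) in CTRL, VLDLsep and CHYLsep; points are means and bars span the lowest to the highest of 3 libraries. *Tyrobp* and *Trem2* stay at the top in all groups, while *Treml4* goes from 0.824 in CTRL to 12.5 and 11.8 in the treated groups.

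*Treml4* (ENSMUSG00000051682) was near silent in control cells and moderately expressed after either particle. It was at 1.86, 1.46 and 1.62 cpm in CTRL, at 26.6, 23.6 and 24.9 cpm in VLDLsep and at 24.9, 21.9 and 23.8 cpm in CHYLsep. All 6 treated libraries lay far above all 3 control libraries, and those of the 2 particles overlapped. The fitted log2 fold change was 4.01 ± 0.16 (standard error) for VLDLsep and 3.90 ± 0.16 for CHYLsep, which is 16.1-fold and 15.0-fold. It ranked 14 among the 12637 tested genes in either comparison. The control value rests on 33 to 42 counts per library and the treated value on 492 to 595. None of the 31-base words of its transcripts occurred in a transcript of another gene. This search took exact words only, in the GENCODE release before that of the authors. Some treated counts were not quite whole (595.001 in VLDLsep replicate 1), so a small sharing of reads with other transcripts was not excluded. The *Treml4* levels were used to choose the set.

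Outside *Treml4*, 2 of the 7 genes tested differed from CTRL with VLDLsep at an adjusted p under 0.05 (limma-voom): *Syk* was higher and *Trem1* lower. Of all tested genes, 35.6% were called in this comparison, 17.8% higher and 17.9% lower. With CHYLsep 2 of 7 were called, again *Syk* higher and *Trem1* lower, where 25.7% of all genes were called, 12.7% higher and 13.0% lower. The 2 comparisons share their control libraries and are not independent. The share of called members was thus near that of all genes.

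*Trem1* (ENSMUSG00000042265), the receptor that amplifies inflammatory signals, fell with both particles. It was at 31.5, 29.5 and 32.1 cpm in CTRL, at 13.5, 15.6 and 10.4 cpm in VLDLsep and at 20.1, 21.0 and 14.8 cpm in CHYLsep. Every treated library was below every control library, and in both treated groups replicate 3 was the lowest. The log2 fold change was -1.16 ± 0.14 for VLDLsep (adjusted p = 0.00015, 95% interval -1.48 to -0.84), a 2.23-fold fall, and -0.67 ± 0.13 for CHYLsep (adjusted p = 0.0042, -0.97 to -0.38), a 1.59-fold fall. *Trem1* and *Treml4*, which flank *Trem3*, thus differed from CTRL in opposite directions.

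*Syk* (ENSMUSG00000021457), the kinase downstream of DAP12, was modestly higher with both particles. Its levels were 119, 126 and 116 cpm in CTRL, 151, 140 and 144 cpm in VLDLsep and 149, 137 and 137 cpm in CHYLsep. The treated libraries did not overlap with the controls. The log2 fold change was 0.36 ± 0.05 with VLDLsep (adjusted p = 0.00036) and 0.31 ± 0.05 with CHYLsep (adjusted p = 0.0015), which is 1.29-fold and 1.24-fold.

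*Tyrobp* (ENSMUSG00000030579), the shared adaptor, was at 419, 407 and 375 cpm in CTRL, at 396, 390 and 369 cpm in VLDLsep and at 378, 416 and 385 cpm in CHYLsep. The 3 groups overlapped. The log2 fold change was 0.04 with VLDLsep (95% interval -0.08 to 0.15, adjusted p = 0.62) and 0.05 with CHYLsep (-0.06 to 0.17, adjusted p = 0.51), and with library size in place of TMM scaling it was -0.06 and -0.03.

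*Trem2* (ENSMUSG00000023992), the lipid-sensing receptor, was at 378, 388 and 363 cpm in CTRL, at 379, 363 and 371 cpm in VLDLsep and at 350, 386 and 380 cpm in CHYLsep. Its groups overlapped fully. The log2 fold change was 0.07 with VLDLsep (95% interval -0.04 to 0.19, adjusted p = 0.31) and 0.06 with CHYLsep (-0.05 to 0.18, adjusted p = 0.42), and -0.02 in both with library size alone.

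The other 3 receptors were low, and their intervals are wide. *Trem3*, a DAP12-coupled receptor next to *Trem1*, ranged from 2.32 to 4.0 cpm over all 9 libraries, with log2 fold changes of -0.19 (95% interval -0.62 to 0.25) and 0.01 (-0.42 to 0.43). *Treml2*, a receptor of lymphocytes and macrophages, ranged from 2.45 to 3.7 cpm, with -0.00 (-0.45 to 0.44) and 0.17 (-0.26 to 0.61). Neither passed the test for VLDLsep (adjusted p = 0.51 for *Trem3* and 0.99 for *Treml2*) or CHYLsep (0.98 and 0.57), and their groups overlapped.

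*Treml1*, the platelet receptor, was the lowest. It had 11, 7 and 10 counts in CTRL, 15, 14 and 12 in VLDLsep and 8, 10 and 16 in CHYLsep. The VLDLsep libraries lay just above the CTRL libraries, and those of CHYLsep overlapped with both. The log2 fold change of 0.64 with VLDLsep had an interval of -0.08 to 1.36 (adjusted p = 0.15) and that of 0.32 with CHYLsep one of -0.43 to 1.06 (adjusted p = 0.54), so a difference was not detectable at this depth. The 6 platelet and megakaryocyte markers summed to 103 to 113 cpm in CTRL, 109 to 138 in VLDLsep and 120 to 135 in CHYLsep, nearly all of it *Pf4*, and the defining marker *Gp9* was at 0 in all libraries.

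**Figure D2:**
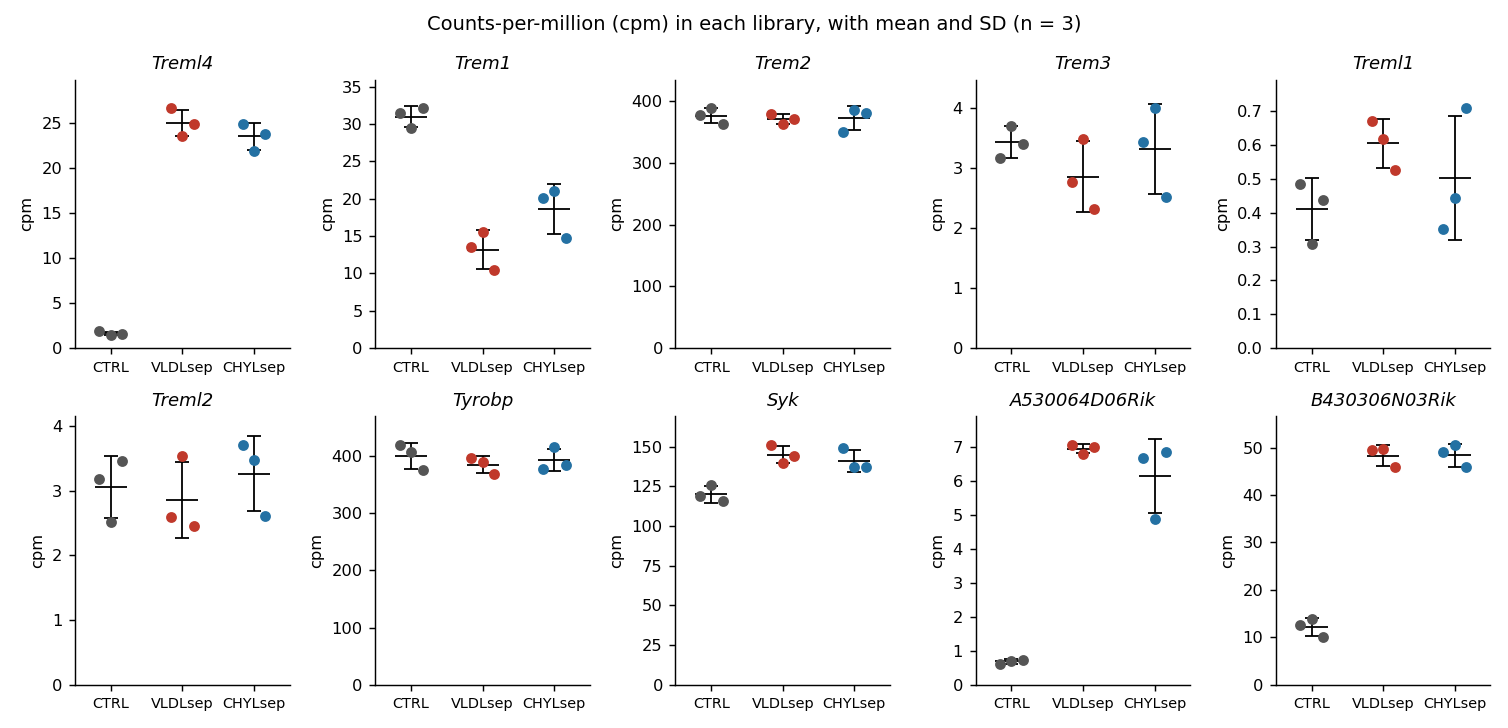
Level in cpm (y axis, from 0) of the 8 genes and of 2 neighbours of *Treml4* in each library, by group; points are libraries, the long bar is the mean and the whiskers the SD of 3 libraries. *Treml4*, A530064D06Rik and B430306N03Rik are higher and *Trem1* is lower in every treated library than in every CTRL library, whereas *Trem2* and *Tyrobp* overlap.

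Within 250 kb of *Treml4* lay 16 genes that were not in the set, of which 4 passed the filter. The other 12 had at most 3 counts in any library. Of the 4, the 2 receptor-like genes rose with both particles and the 2 genes at the edge, *Nfya* and *Oard1*, did not pass the test (log2 fold changes of 0.04 to 0.13, with adjusted p from 0.15 to 0.86). *Nfya* encodes a subunit of the CCAAT-binding factor NF-Y and *Oard1* an enzyme that removes ADP-ribose from proteins. *Nfya* turned to -0.04 in both comparisons and *Oard1* to -0.02 with CHYLsep when library size alone was used.

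A530064D06Rik (ENSMUSG00000043939) was at 0.619, 0.707 and 0.744 cpm in CTRL, at 7.06, 6.8 and 7.01 cpm in VLDLsep and at 6.69, 4.9 and 6.85 cpm in CHYLsep. Like *Treml4*, it was near silent in control cells and present in all treated libraries. Its log2 fold change was 3.39 ± 0.25 with VLDLsep (adjusted p = 3.8e-06) and 3.18 ± 0.25 with CHYLsep (adjusted p = 1e-05), with 14 to 17 counts per control library.

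B430306N03Rik (ENSMUSG00000043740) started higher, at 12.5, 13.9 and 10.1 cpm in CTRL, and reached 49.4, 49.7 and 45.8 cpm in VLDLsep and 49.0, 50.5 and 45.8 cpm in CHYLsep. All treated libraries were above all controls. The log2 fold change was 2.09 ± 0.09 with VLDLsep (adjusted p = 1.7e-07) and 2.08 ± 0.09 with CHYLsep (adjusted p = 2e-07), a rise of 4.26-fold and 4.23-fold.

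These 2 genes are relatives whose reads may be split between copies. Of the 31-base words in their transcripts, 17.2% (A530064D06Rik) and 6.6% (B430306N03Rik) also occurred in other genes, and 301 of the words of B430306N03Rik occurred in A530064D06Rik. Their separate values are uncertain to that extent. For *Trem1* the share was 0.7% and for *Treml2* 0.3%.

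Along the chromosome, the 3 genes that rose were not next to each other. *Trem1* and *Trem3* lie between A530064D06Rik and *Treml4*, and *Treml2* lies between *Treml4* and B430306N03Rik. The map of log2 fold changes along the cluster shows the rising genes alternating with genes that fell or did not pass the test.

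**Figure D3:**
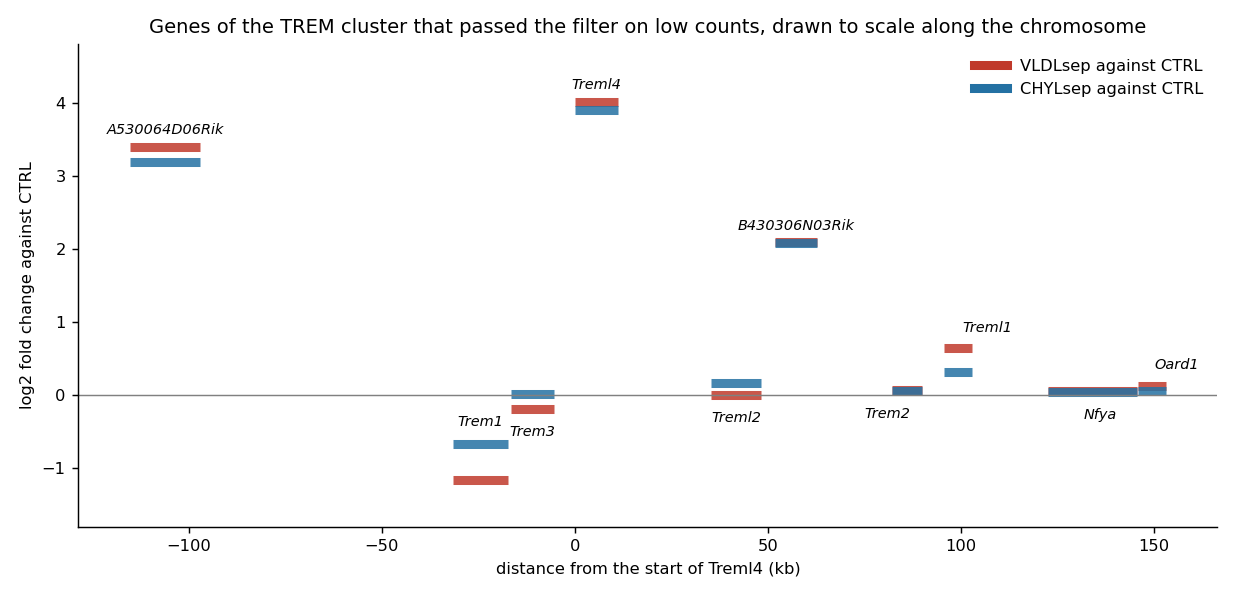
Log2 fold change against CTRL (y axis) of the 10 tested genes of the TREM cluster, drawn as bars to scale at their distance in kb from the start of *Treml4* (x axis), for VLDLsep and CHYLsep. *Treml4* at 4.01 and 3.90, A530064D06Rik at 3.39 and 3.18 and B430306N03Rik at 2.09 and 2.08 stand above the other genes. *Treml1*, at 0.64 and 0.32, did not pass the test, *Trem1* lies below 0, and the rest lie near 0.

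The 2 particle sizes were compared directly at the same dose and time by the labels and methods, although a figure legend of the study gives a lower dose for the CHYL-sized particles. None of the 8 genes passed the test (limma-voom), 1 of them had an unadjusted p under 0.05, and of all tested genes 0.0% were called, with 812 genes at an unadjusted p under 0.05. edgeR's quasi-likelihood test likewise called 0 genes and DESeq2 called 24, none of them among the 8, of which 5 received no adjusted p from it. *Treml4* differed by 0.10 on the log2 scale (95% interval -0.06 to 0.27, adjusted p = 0.89), so its levels with the 2 particles were within 0.27 of each other by this interval. *Syk* differed by 0.05 (-0.06 to 0.17), *Tyrobp* by -0.02 (-0.13 to 0.10) and *Trem2* by 0.01 (-0.10 to 0.13).

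*Trem1* was the gene with the unadjusted p under 0.05. It was lower with VLDLsep than with CHYLsep by 0.49 on the log2 scale (log2 fold change -0.49 ± 0.15, 95% interval -0.83 to -0.15, unadjusted p = 0.0095, adjusted p = 0.61). The groups overlapped, since replicate 3 of CHYLsep (14.8 cpm) was below replicate 2 of VLDLsep (15.6 cpm). Between libraries of the same number the log2 ratio was -0.55 (replicate 1), -0.42 (replicate 2) and -0.49 (replicate 3). No source says that a number marks a shared experiment. Without the replicate 3 libraries the fitted difference was again -0.49, with an adjusted p of 0.013 (limma-voom), so the call rests on whether these libraries are included.

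**Figure D4:**
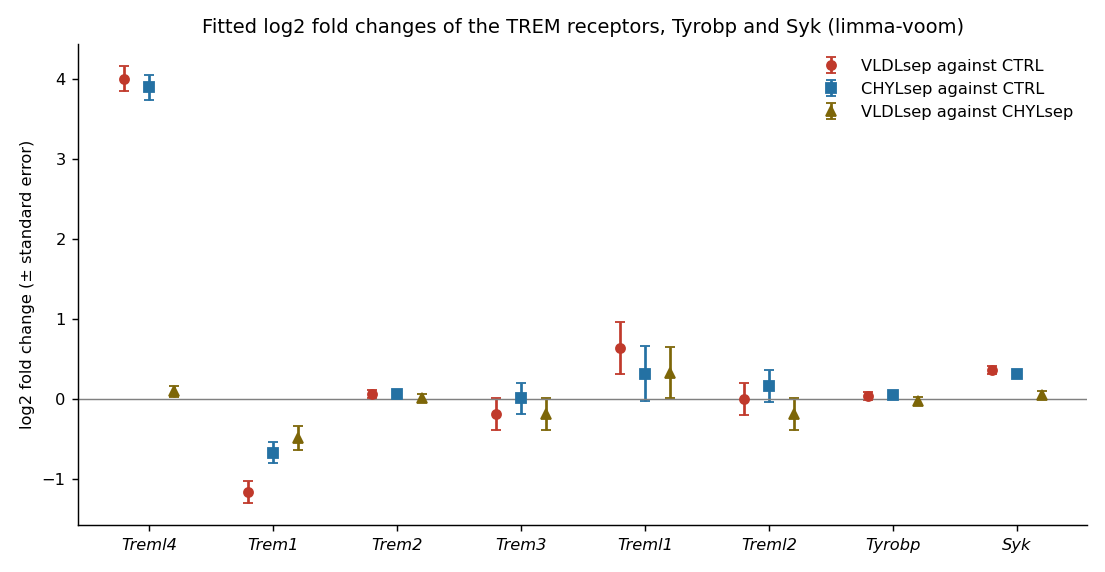
Fitted log2 fold change (y axis) of each gene for VLDLsep against CTRL, CHYLsep against CTRL and VLDLsep against CHYLsep; whiskers are standard errors. *Treml4* is at 4.01 and 3.90 against CTRL and 0.10 between particles, and *Trem1* is at -1.16, -0.67 and -0.49.

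Genes with at least 1 cpm on average were ordered by how closely their log2 cpm followed that of *Treml4* over the 9 libraries. The closest were *Cpt1a*, which admits fatty acids to mitochondrial oxidation (Pearson r = 0.999), *Gclm* and *Gclc*, the subunits of the enzyme that starts glutathione synthesis (0.998 each), the haem transporter *Slc48a1* (0.998) and the unnamed gene Gm28650 (0.997). Against CTRL they rose with VLDLsep by 1.63 (*Cpt1a*), 3.15 (*Gclm*), 1.64 (*Gclc*) and 2.03 (*Slc48a1*) on the log2 scale, and Gm28650 went from 1 to 2 counts per CTRL library to 39 to 46 with VLDLsep and 31 to 35 with CHYLsep. For comparison r was 0.994 for A530064D06Rik and 0.99 for B430306N03Rik. The 9 libraries form a control and a treated cluster, so r mostly records that split and is only a measure of likeness.

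For *Trem2*, which varied little, the closest were Gm7336 (r = 0.957), the ribosomal protein gene *Rpl23a* (0.942), *Nmnat3*, an enzyme of NAD synthesis (0.939), Gm13394 (0.916) and *Smim8* (0.909). Their log2 fold changes with VLDLsep were 0.103 to 0.274. The 2 sets of nearest genes had no gene in common.

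The genes around the pathway were then described by lists, each without the members of the set, beside the share of all genes called (35.6% with VLDLsep, 17.8% higher and 17.9% lower, and 25.7% with CHYLsep, 12.7% higher and 13.0% lower) and a median log2 fold change over all tested genes of -0.000529 with VLDLsep and 0.00111 with CHYLsep. Of 21 further receptors, most of which pair with DAP12 or the related Fc receptor gamma chain, 15 were tested. With VLDLsep 5 were higher and 3 lower (53.3% called, against 35.6% of all genes, median -0.229), and with CHYLsep 5 higher and 2 lower (46.7% against 25.7%, median -0.0514). With the replicate number as a block, 5 were higher and 7 lower with VLDLsep, the added ones being *Fcgr3*, *Fcgr4*, *Pira2* and *Pilrb2*. The block also called more genes in all with VLDLsep, 6058 of the 12637 tested against 4504 without it. Among the higher were 3 C-type lectins that sense microbial sugars and glycolipids: *Clec4n* (log2 fold changes of 1.51 and 1.68, VLDLsep first), *Clec4d* (0.91 and 0.88) and *Clec4e* (0.88 and 0.88). *Clec5a*, a DAP12-coupled lectin, fell by 1.17 on the log2 scale with VLDLsep, from 107 to 44.7 cpm, and by 0.89 with CHYLsep.

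The other adaptors, *Fcer1g* and *Hcst*, did not pass the test in either comparison. *Fcer1g*, the Fc receptor gamma chain, was at 580.0 cpm in CTRL, with log2 fold changes of -0.12 (adjusted p = 0.23) and -0.03 (adjusted p = 0.78). With the replicate number as a block the VLDLsep difference of *Fcer1g* was called (-0.12, adjusted p = 0.028), whereas that of *Tyrobp* was not (adjusted p = 0.5).

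Of the 28 tested kinases and effectors, 5 were higher and 11 lower with VLDLsep (57.1% called, against 35.6% of all genes, median -0.115) and 5 higher and 8 lower with CHYLsep (46.4% against 25.7%, median -0.0979). *Itpr2*, a calcium channel of the endoplasmic reticulum, rose by 0.97 and 0.87 on the log2 scale, and the kinase *Tec* by 0.63 and 0.50. *Lyn*, a Src-family kinase that phosphorylates the activation motif, fell by 0.60 and 0.36, and *Card9*, which links SYK to NF-κB, fell by 0.59 and 0.54.

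All 21 genes listed as inhibitors of the pathway were tested. With VLDLsep 15 differed, 4 higher and 11 lower (71.4% called, against 35.6% of all genes, median -0.382). With CHYLsep 3 were higher and 10 lower (61.9% against 25.7%, median -0.267). Of this list the receptors *Cd300lf* (log2 fold changes of -1.57 and -1.04) and *Cd33* (-1.49 and -1.05) fell most. *Cd300a*, which binds phospholipids of dead cells, rose by 1.08 and 1.09. *Cd200r1*, at 0.675 cpm in CTRL and 1.15 and 1.14 cpm in treated cells, rose by 0.86 (adjusted p = 0.024) and 0.84 (adjusted p = 0.037), and DESeq2 did not call it (adjusted p = 0.071 and 0.11).

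Of the 12 tested genes for ligands of the receptors and for their shedding, 3 were called with VLDLsep, 2 higher and 1 lower (25.0%, below the 35.6% of all genes, median 0.0296), and 2 with CHYLsep, both higher (16.7%, below 25.7%, median 0.0471). With the replicate block 5 of the 12 were called with VLDLsep, where 6058 of all 12637 tested genes were called. The added ones were the gamma-secretase genes *Psen2* (0.14, adjusted p = 0.041) and *Ncstn* (-0.10, adjusted p = 0.046). *Hspd1* (0.39 and 0.30) and *Lgals3* (0.25 and 0.23), which encode a heat shock protein and a galectin described as TREM2 ligands, rose slightly. The *Lgals3* call was lost with library size alone, at 0.16 (adjusted p = 0.16) and 0.15 (adjusted p = 0.19), and so was the *Hspd1* call with CHYLsep, at 0.22 (adjusted p = 0.058). *Hmgb1*, a nuclear protein that binds TREM1 when released, fell by 0.22 with VLDLsep (adjusted p = 0.014) and was at -0.12 with CHYLsep (adjusted p = 0.15), where library size alone (-0.20, adjusted p = 0.013) and the replicate block (adjusted p = 0.044) called it.

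*Trem2* is known as a marker of lipid-associated macrophages, and 18 of 20 other genes of that state were tested. With VLDLsep 8 were higher and 2 lower (55.6% called, against 35.6% of all genes, median 0.189), and with CHYLsep 7 higher and 2 lower (9 of 18 called, against 25.7%, median 0.129). The lower ones with either particle were *Spp1* (-0.27 in both, from 2200 cpm in CTRL to 1710 and 1730) and *Ch25h* (-1.60 and -1.45, from 0.646 cpm). The lipid droplet coat gene *Plin2* rose by 1.82 and 1.60 on the log2 scale, from 357 to 1180 and 1020 cpm. The elastase *Mmp12* rose by 1.22 and 1.10, the lysosomal lipase *Lipa* by 1.06 and 0.99 and the integrin *Itgax*, from 1.07 cpm, by 0.93 and 0.75, where DESeq2 did not call the CHYLsep difference (adjusted p = 0.07). Of this list *Cd63* and *Axl* had at most 3 counts in any library. Whether reads of these 2 genes also fit other annotated genes was not checked.

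Of the 12 osteoclast genes, a fate that needs DAP12, 7 were tested, and 2 were higher and 1 lower with either particle (42.9% called in each, against 35.6% and 25.7% of all genes, medians 0.178 and 0.213). *Mitf* (0.59 and 0.63) and *Dcstamp* (0.51 and 0.52) rose, and *Tnfrsf11a*, the receptor for the osteoclast factor RANKL, fell by 1.11 and 0.79. The *Dcstamp* calls were lost without CTRL replicate 1 (adjusted p = 0.053 and 0.063), and that with CHYLsep also without CTRL replicate 2 (0.058). The osteoclast phosphatase *Acp5* had at most 1 count per library. The 5 osteoclast markers summed to 11.2 to 14.2 cpm in CTRL, 15.1 to 16.7 in VLDLsep and 14.8 to 18.1 in CHYLsep. *Src* stands in this list and among the kinases.

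TLR7 signalling was listed because of the link with TREML4. Of its 9 genes, 1 was higher and 6 lower with VLDLsep (77.8% called, against 35.6% of all genes, median -0.206), and 1 higher and 5 lower with CHYLsep (66.7% against 25.7%, median -0.185). *Tlr7* itself fell by 0.76 and 0.55 on the log2 scale, from 168 to 93.0 and 109 cpm. *Irf7* fell by 0.47 with VLDLsep (adjusted p = 0.045, or 0.068 without a filter on low counts) and was at -0.45 with CHYLsep (adjusted p = 0.067). The CHYLsep difference was called by DESeq2 (adjusted p = 0.039), with library size alone (0.032) and with the replicate block (0.041). *Traf6*, which transmits the signal to NF-κB, rose by 0.42 (adjusted p = 0.0016) and 0.29 (adjusted p = 0.019), the latter call being lost without CTRL replicate 1 (0.071), CTRL replicate 2 (0.06) or CHYLsep replicate 3 (0.065). No gene of any list was called between the 2 particles in this model (limma-voom).

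**Figure D5:**
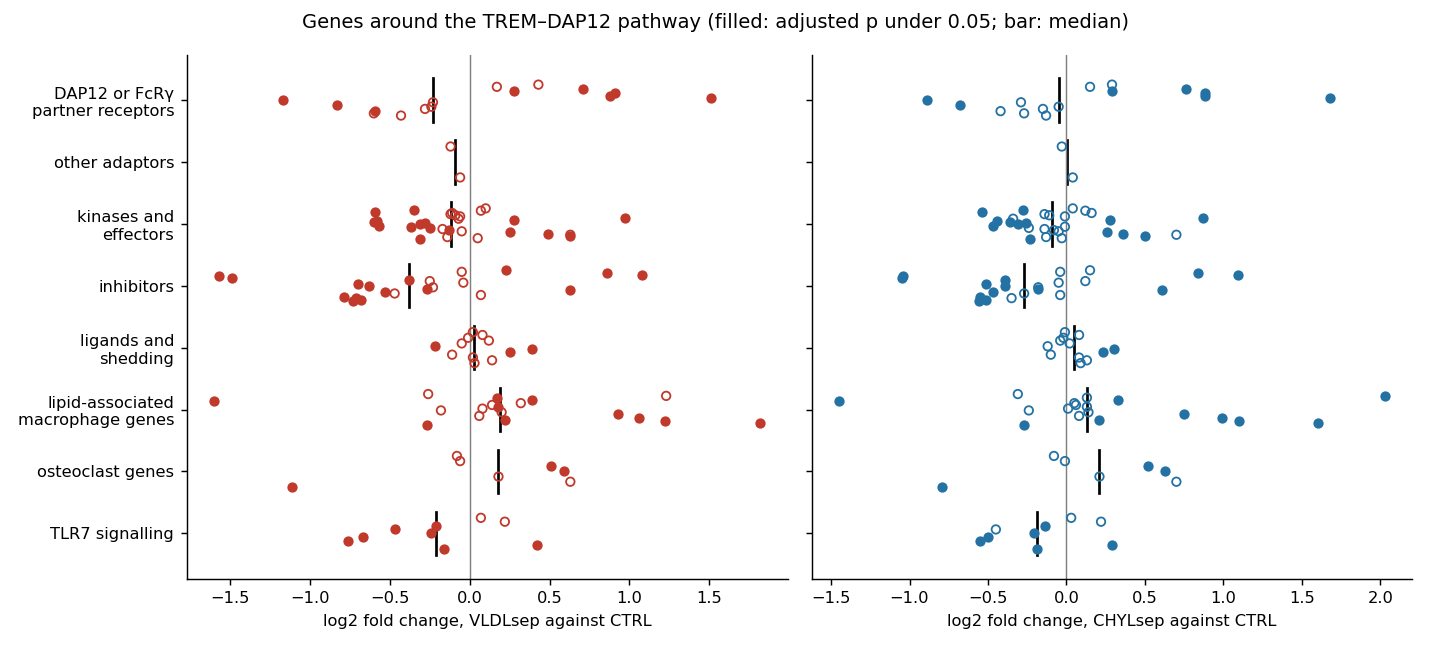
Log2 fold change against CTRL (x axis) of the tested genes of each list (rows), for VLDLsep on the left and CHYLsep on the right; filled points have an adjusted p under 0.05, open points do not, and black bars are medians. Inhibitors lie mostly below 0, with a median of -0.382 with VLDLsep, and lipid-associated macrophage genes mostly above, with a median of 0.189.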

How the data were processed

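RNA was sequenced from 9 libraries of RAW264.7 cells. The authors deposited estimated counts per gene, made with Salmon 0.14.1 on GENCODE transcripts of GRCm38.p6 and summarized with tximport. The methods also describe scaling for length and depth, but 58.3% of values above 10 were exactly whole, with no tolerance, so the table was treated as unscaled. Symbols were matched for 54346 of 54432 identifiers, and coordinates and exon lengths came from the GENCODE release before that of the authors.

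A gene was tested where 3 or more libraries exceeded 10 counts. Counts were rounded, normalized by TMM (edgeR 4.0.16) and fitted in 1 model of 9 libraries with voom and limma 3.58.1 in R 4.3.3, with Benjamini-Hochberg adjustment over all tested genes and a threshold of 0.05. Levels are cpm of the library total, so ratios of cpm differ slightly from fitted folds. The precision of low genes is limited by counting error. The fit was tested on simulated counts (12497 genes, VLDLsep against CTRL): 85.7% of 98 genes changed by a log2 of 1 and 96% of 99 changed by 2 were recovered, with 12 false calls. The simulation changed only these few genes, up and down alike, and did not set replicate 3 apart. In the data 35.6% of genes were called and replicate 3 stood apart, so these figures may not hold there.

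The genes of the set and the lists were chosen with earlier results of these data known. The genes named are the 8 of the set, the tested neighbours within 250 kb, per list the 4 genes called against CTRL with the largest absolute VLDLsep log2 fold change at 1 cpm or more in some group, and the 5 genes most like *Treml4* and *Trem2*; 1 gene that this rule names is not reported here. *Fcer1g*, *Hcst*, *Fcgr3*, *Fcgr4*, *Pira2*, *Pilrb2*, *Psen2*, *Ncstn*, *Spp1*, *Ch25h*, *Cd63*, *Axl*, *Acp5* and *Src* fall outside this rule and were named after their values were seen.

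Same-numbered libraries of VLDLsep and CTRL deviated together from their group means across genes (correlations of 0.138, 0.131 and 0.291), but no source says that a number marks a shared experiment, and the fit without a replicate block was kept. DESeq2 1.42.0, edgeR's quasi-likelihood test, limma-trend with a prior count of 2, other scalings and filters, fits of 2 groups alone, a replicate block and the omission of libraries were the alternatives. Protein sequences were not used here.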

Additional observations from a re-analysis of the deposited data

How the results depend on the processing

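The calls of *Syk* and *Trem1* against CTRL kept their direction and their side of the threshold under all 16 alternatives in either comparison, with log2 fold changes of 0.27 to 0.39 and 0.23 to 0.34 for *Syk* and of -1.29 to -0.97 and -0.76 to -0.49 for *Trem1* (VLDLsep first). *Treml4* lay between 3.91 and 4.09 with VLDLsep and between 3.82 and 3.99 with CHYLsep. Between the particles, 1 of the 8 genes (*Trem1*) was called without the replicate 3 libraries, where 259 genes were called in all, and 0 of 8 under each other alternative. The stricter filter, more than 50 counts, left *Treml1* untested, as did the fit of CHYLsep with CTRL only.

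With library size only in place of TMM, the median of all genes shifted by -0.0935 (VLDLsep) and -0.0786 (CHYLsep), and 1507 genes were higher and 3310 lower with VLDLsep (against 2244 and 2260) and 1067 higher and 2514 lower with CHYLsep (against 1610 and 1641). Values that did not pass the test then turned sign: *Trem2* was at -0.02 in both comparisons, *Tyrobp* at -0.06 and -0.03, *Nfya* at -0.04 in both, and with CHYLsep *Trem3* was at -0.07 and *Oard1* at -0.02. Between particles *Trem2* was at -0.0029 and B430306N03Rik at -0.0041.

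With the replicate number as a block, the log2 fold changes of *Trem1* were -1.14 (adjusted p = 8.1e-06) and -0.65 (adjusted p = 0.00056) and those of *Syk* 0.36 and 0.31, and no call of the 8 genes changed in any comparison. *Treml2* turned to 0.01 with VLDLsep. The block raised the genes called in all from 4504 to 6058 with VLDLsep, from 3251 to 4948 with CHYLsep and from 0 to 147 between particles, where *Trem1* had an adjusted p of 0.09. With the block 1 of the other adaptors and 5 of the ligand and shedding genes were called with VLDLsep and 14 of the lipid-associated genes with CHYLsep. Further lists gained calls too. Inhibitors were 4 higher and 14 lower with VLDLsep and 4 higher and 13 lower with CHYLsep. Kinases and effectors were 5 higher and 13 lower with VLDLsep and 6 higher and 11 lower with CHYLsep. TLR7 signalling genes were 2 higher and 6 lower with either particle, and lipid-associated genes 10 higher and 2 lower with VLDLsep. Ligand and shedding genes were 2 higher and 1 lower with CHYLsep. Between particles the block called 1 partner receptor, 2 kinases and effectors, 1 inhibitor, 1 lipid-associated gene and 1 TLR7 signalling gene. For CHYLsep the same-numbered correlations with CTRL were 0.124, 0.0694 and 0.337 and with VLDLsep 0.0289, 0.118 and 0.356. The replicate 3 libraries thus deviated together. They correlated negatively with replicates 1 and 2 of the other group (-0.254 to -0.152). Because deviations were taken from group means, these negative values follow largely from the positive ones and are no separate observation. Replicate 1 with replicate 2 gave 0.11 to 0.178 across these groups, so numbers 1 and 2 showed no consistently closer match with their own number. Whether a number marks a shared experiment was not tested.

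Leaving out libraries turned values near 0: the ranges were -0.16 to 0.19 for *Treml2* and -0.07 to 0.15 for *Nfya* with VLDLsep, -0.13 to 0.19 for *Trem3* and -0.09 to 0.15 for *Nfya* with CHYLsep, and -0.04 to 0.04 for *Trem2*, -0.05 to 0.02 for *Tyrobp* and -0.02 to 0.04 for B430306N03Rik between particles. Calls of *Cd200r1*, *Lgals3*, *Dcstamp*, *Irf7*, *Hspd1*, *Itgax* and *Traf6* were lost without single libraries. For these the cause was not tested.

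With the longest transcript in place of all exons, levels in cpm per kilobase became 0.943, 14.3 and 13.5 for *Treml4* (CTRL, VLDLsep, CHYLsep), 0.766, 0.718 and 0.818 for *Treml2*, 670.0, 645.0 and 658.0 for *Tyrobp* and 22.4, 27.0 and 26.3 for *Syk*. *Trem2* became 78.7 in CTRL and 77.6 in VLDLsep, and *Treml1* 0.49 in VLDLsep. With TMM-scaled library sizes *Trem2* was at 362.0 cpm in CTRL and 380.0 in VLDLsep.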
